A study of Rattus norvegicus with 4 samples.

Results

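The ABC (ATP-binding cassette) transporter family was examined in NR8383, an alveolar macrophage cell line from rat lung, exposed for 4 h to carbon black. Its members were the rat RefSeq genes whose symbol begins with Abca to Abcg and a digit, leaving out the cholesterol exporter genes Abca1 and Abcg1. The RefSeq table held 56 such genes, of which 41 had at least 1 probe on the array, among 16581 genes named by a probe in all. The cells had been exposed to Printex 90, a carbon black powder of aggregated nanoparticles, at 0.9 cm²/cm², and the labels state 20 passages of this single cell line. There were 4 biological replicates of this 1 group, each on its own 1-colour Agilent array, and cells incubated without particles were not analysed here. The study set exposed against unexposed cells, which these arrays alone cannot do, so the values are levels in exposed cells and their spread between replicates.

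ABC proteins share a nucleotide-binding domain that hydrolyses ATP, and most of them use it to move a substrate across a membrane. In macrophages they are best known for lipid efflux, for the export of drugs, glutathione conjugates and leukotrienes, and for import into lysosomes, peroxisomes and other organelles. Members of subfamilies E and F have no membrane-spanning part and act on ribosomes and translation.

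The 4 arrays lay on 1 slide and each carried 45598 probes. Between 17078 and 18635 probes, or 37.5% to 40.9%, were marked well above background by the scanner software, and no spot was saturated. The count on replicate 2 stood apart from the other 3. A level is log2 of the processed intensity, less the 75th percentile of all probes on that array, so that 0 is this percentile, and a gene with several probes is given by the probe with the highest mean. The lowest spot marked well above background lay at a level of -2.29, -3.05, -2.56 and -2.40 on replicates 1 to 4, and a gene without the mark has only a bound there. Probes bind with different strength, so levels are compared between arrays for 1 gene and never between genes. Of 11 measured macrophage markers, 9 were marked on every array, Marco and Adgre1 on none, and Itgax had no matched probe. Markers of epithelial, lymphoid, fibroblast and endothelial cells numbered 34 with a probe. Of these, 23 were marked on no array, among them Sftpc, Epcam and Col1a1, and Sftpd and Cdh5 on some. The other 9, marked on each array, were Napsa, Ager, Foxj1, Cd3d, Lck, Pax5, Dcn, Pecam1 and Vwf, and their part in the family's levels was not tested. These are bulk RNA values, in which fewer cells of a type and less RNA per cell cannot be told apart.

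Of the 41 measured members, 22 (53.7%) stood well above background on each of the 4 arrays, 4 on 1 array and 15 (36.6%) on none. Among all 16581 named genes, 48.0% had the mark on each of the 4 arrays and 44.0% on none, so the family's shares lay near those of genes at large. By role, the counts were as follows, with no test between roles. All 3 measured peroxisomal genes, all 3 measured non-transporting genes, 3 of 4 mitochondrial genes and 5 of 8 multidrug resistance protein genes had signal on every array. That was so for 1 of 7 measured multidrug and bile efflux genes and for 0 of 2 sulfonylurea receptor genes. The 15 members without a matched probe were 4 pseudogenes and 11 protein-coding genes, which were Abca3, Abca6, Abca8, Abca9, Abca12, Abca13, Abca14, Abca16, Abcb5, Abcf2 and Abcg3l2.

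**Figure D1:**
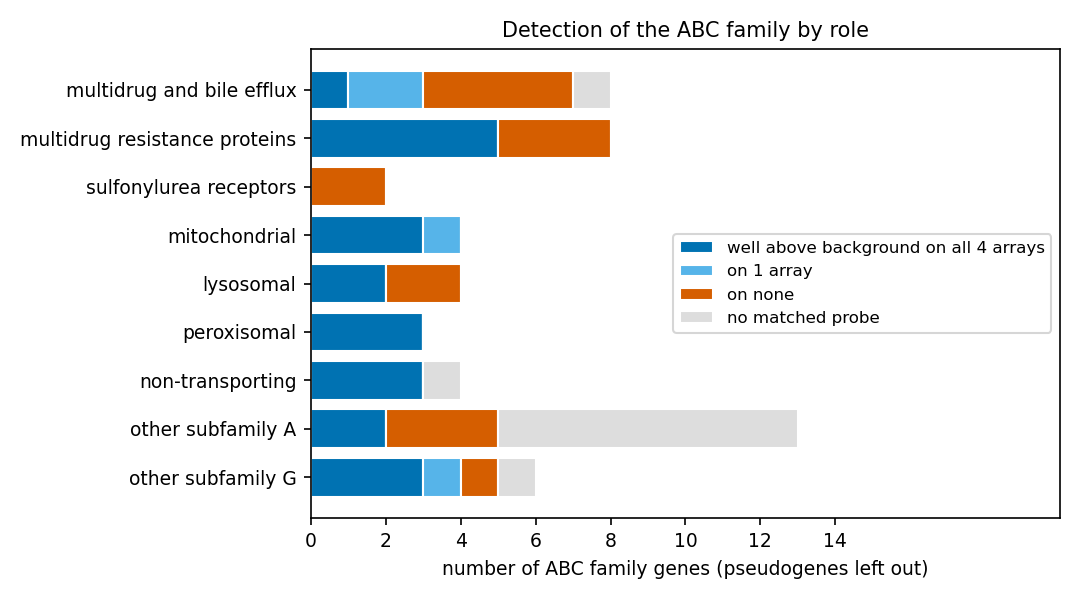
Number of ABC family genes (horizontal axis) in each role (vertical axis), with the colours giving the arrays on which a gene was well above background and grey the genes without a matched probe. The peroxisomal and non-transporting bars hold no measured gene outside the class of all 4 arrays, while only 1 of 7 measured multidrug and bile efflux genes is in that class.

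The drug efflux locus on chromosome 4 was split. Abcb4, Abcb1b and Abcb1a lie next to each other there, with no other protein-coding gene between them in assembly GRCr8. Abcb4, whose product moves phosphatidylcholine into bile in hepatocytes, had signal on each of the 4 arrays, and the P-glycoprotein genes Abcb1a and Abcb1b, which encode the classical multidrug pumps, were well above background on none. The 300 bases around their annotated start sites (250 before and 50 after, from RefSeq on GRCr8) are shown because the 3 neighbours differ both in signal and in CpG content. All 3 run on the minus strand, at chr4:26164096-26164395 for Abcb4, chr4:26397599-26397898 for Abcb1a and chr4:26279980-26280279 for Abcb1b. They are written 5′ to 3′, and capitals mark CpG dinucleotides.
Abcb4: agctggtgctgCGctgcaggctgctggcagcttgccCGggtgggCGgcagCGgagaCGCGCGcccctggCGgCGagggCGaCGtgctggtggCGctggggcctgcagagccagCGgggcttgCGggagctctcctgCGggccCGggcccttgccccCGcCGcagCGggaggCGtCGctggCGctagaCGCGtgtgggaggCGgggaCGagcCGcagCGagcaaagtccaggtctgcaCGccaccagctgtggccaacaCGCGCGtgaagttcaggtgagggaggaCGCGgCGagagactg
Abcb1a: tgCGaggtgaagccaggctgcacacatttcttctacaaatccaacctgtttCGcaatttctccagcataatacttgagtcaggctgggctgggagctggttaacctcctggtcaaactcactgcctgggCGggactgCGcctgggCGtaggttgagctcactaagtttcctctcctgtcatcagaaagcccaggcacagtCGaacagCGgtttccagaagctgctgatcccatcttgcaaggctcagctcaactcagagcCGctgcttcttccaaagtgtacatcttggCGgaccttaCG
Abcb1b: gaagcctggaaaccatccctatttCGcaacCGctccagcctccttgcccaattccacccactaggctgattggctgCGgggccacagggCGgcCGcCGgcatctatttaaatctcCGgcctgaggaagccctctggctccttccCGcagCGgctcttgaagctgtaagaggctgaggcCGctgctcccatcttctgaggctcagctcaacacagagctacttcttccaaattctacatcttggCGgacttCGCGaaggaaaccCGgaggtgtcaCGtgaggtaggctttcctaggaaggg
The Abcb4 window held 35 CpG dinucleotides, against 10 in that of Abcb1a and 15 in that of Abcb1b. Observed over expected CpG was 0.871, 0.466 and 0.593 in the same order.

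Abcb4 had levels of 1.26, 1.24, 1.17 and 1.32 on replicates 1 to 4 (mean 1.25 ± 0.061, SD, n = 4). The values were close on all arrays, and its second probe, on the other transcript accession, was also well above background on all 4. Abcb1a was at -4.45, -5.23, -4.71 and -4.58, and Abcb1b at -3.31, -3.29, -3.16 and -3.42, all of them below the mark on the same arrays. The brighter Abcb1b probe did pass a weaker mark, positive and significant against background, on all 4 arrays, which the Abcb1a probe did not on any. Abcb1a and Abcb1b are close copies, and how far their probes tell them apart was not tested.

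No other efflux gene of this group was well above background on all arrays. Abcg2, the breast cancer resistance protein gene, was well above background on no array, nor was Abcg5, which encodes 1 of the paired subunits of the sterol exporter of gut and liver. Its partner gene Abcg8 was marked on replicate 4 alone, where its level was -2.02, beside -4.57, -5.32 and -3.91 on replicates 1 to 3. The bile salt export pump gene Abcb11 was marked on replicate 3 alone, with levels of -4.52, -5.33, -2.25 and -4.68. In both genes the single mark came from 1 of 2 probes, and the second probe was marked on no array. The weaker mark was present on 3 arrays for Abcg5, on 2 for Abcg8 and on 1 each for Abcg2 and Abcb11.

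The multidrug resistance protein genes, whose products export organic anions and conjugates, divided 5 to 3. Abcc1, which exports leukotriene C4 and glutathione conjugates, had levels of 3.65, 3.46, 3.48 and 3.41 on replicates 1 to 4 (3.50 ± 0.10, SD, n = 4). Abcc4, an exporter of cyclic nucleotides and prostaglandins, had levels of 2.89, 2.95, 3.00 and 2.81, and Abcc5, a further cyclic nucleotide exporter, 4.79, 4.85, 4.75 and 4.51. All 3 were lowest on replicate 4, with the highest level on replicate 1 for Abcc1, 3 for Abcc4 and 2 for Abcc5, and none of the 3 spanned more than 0.34 log2 units. Abcc10, which encodes multidrug resistance protein 7, had levels of -1.18, -1.58, -1.15 and -1.44. Abcc2, best known as the anion exporter of the hepatocyte's canalicular membrane, had levels of -1.89, -1.45, -1.91 and -2.12, and it was highest on replicate 2. Its linear intensity was 29.5, 34.3, 16.9 and 14.7, against 22.3, 11.3, 10.8 and 12.1 for the lowest spot marked well above background on the same arrays. Abcc3, an organic anion exporter of the liver, Abcc6, which is mutated in pseudoxanthoma elasticum, and Abcc12 were well above background on no array. Neither were the sulfonylurea receptor genes Abcc8 and Abcc9, nor Kcnj11 and Kcnj8, which encode the pore of the same potassium channel.

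Of the mitochondrial transporter genes, Abcb8 and Abcb10 had signal on each of the 4 arrays. Abcb10, which is needed for haem synthesis in red cell precursors, had levels of 3.10, 2.89, 2.74 and 2.38 on replicates 1 to 4 (2.78 ± 0.31, SD, n = 4). It was highest on replicate 1 and lowest on replicate 4, a span of 0.72 log2 units, and its SD was 0.18 without replicate 4. Its second probe had the same highest and lowest array, with levels of 2.37, 2.21, 1.91 and 1.73. Abcb8, an inner membrane protein, was steadier at 1.59, 1.56, 1.35 and 1.45. The porphyrin transporter gene Abcb6 was marked on replicate 2 alone, by 1 of its 2 probes, with levels of -4.44, -2.12, -4.68 and -3.61. All 6 measured genes of iron-sulfur cluster assembly had signal on every array.

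The peroxisomal genes were all detected. The spread of Abcd2 and Abcd3 depended on the background correction. Abcd3, which encodes an abundant peroxisomal membrane protein that imports branched fatty acids, had levels of 3.87, 3.84, 3.84 and 3.92 on replicates 1 to 4. Its SD was 0.037. Abcd2, which imports very long chain fatty acids, had levels of -0.91, -1.50, -1.54 and -1.60, with replicate 1 above the other 3. The SD of Abcd2 was 0.32 over 4 arrays and 0.053 without replicate 1. With an alternative background correction (normexp) the order was reversed, with an SD of 0.052 for Abcd2 and 0.10 for Abcd3. The 2 genes also differ in brightness. The median SD of all tested genes was 0.26 near a level of -1.28 and 0.12 near 3.60. Of 7 measured peroxisome partner genes, 5 had signal on every array, Pex3 on 3 and Ehhadh on none.

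Lysosomal members split evenly. Abca2, a lipid transporter of lysosomes and late endosomes, had levels of 4.52, 4.62, 4.51 and 4.29 on replicates 1 to 4 (4.49 ± 0.14, SD, n = 4). Its probe was spotted 10 times on each array, and the SD between these spots was 0.20 on replicate 1 and between 0.081 and 0.090 on the other 3. Abcd4, which releases cobalamin (vitamin B12) from lysosomes together with Lmbrd1, had levels of -0.89, -0.47, -0.41 and -0.30 and was lowest on replicate 1. Lmbrd1 and the cobalamin pathway gene Mmadhc were detected on all arrays as well, while Mmachc and Mtr were marked on replicate 2 alone, Tcn2 on none, and Mmut had no matched probe. The lysosomal peptide transporter gene Abcb9 and Abca5 were well above background on no array, by either of the 2 probes of each.

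The non-transporting members were all detected where measured. Abcf1, whose product binds the initiation factor eIF2, had levels of 5.93, 5.89, 5.70 and 5.70 on replicates 1 to 4. Abcf3, of the same subfamily, had levels of 1.60, 2.15, 1.72 and 1.95. Abce1, which splits ribosomes after termination, had the widest span of the 3, with 1.27, 0.81, 1.06 and 1.60 in the same order (1.19 ± 0.34, SD, n = 4). It was highest on replicate 4 and lowest on replicate 2. All 9 measured genes of ribosome recycling and of eIF2 and its control had signal on every array, with Eif2s1 at an SD of 0.012.

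Among the remaining subfamily A genes, Abca7 had levels of 1.30, 1.43, 1.38 and 1.40 on replicates 1 to 4 and Abca17 -1.64, -1.43, -1.60 and -1.82. Abca7 is known for phospholipid export and for a part in phagocytosis, and its SD was 0.058. Abca4, a lipid transporter of photoreceptors, Abca8a and Abca15 were well above background on no array.

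In subfamily G the rodent relatives of Abcg2 were unevenly represented. Abcg3l4 had levels of 3.39, 3.29, 3.22 and 3.06 on replicates 1 to 4, and all 3 of its probes had the mark on every array. Abcg3l1 had levels of 0.93, 1.12, 1.05 and 1.01. Abcg3l3 was marked on replicate 2 alone, with levels of -3.73, -2.70, -3.75 and -2.39, so that the unmarked replicate 4 had the highest level. Abcg3 was marked on no array, and all 4 genes lie on chromosome 14. They are close copies, and the part of shared probe binding in their values was not tested. Abcg4, a relative of Abcg1 linked to sterol efflux, had levels of -0.32, -1.03, -1.47 and -1.20, with an SD of 0.49. Its probe had 2 spots on each array. On replicate 1 these spots stood at -1.02 and 0.38, while on the other arrays they were -1.09 and -0.96, -1.66 and -1.28, and -1.25 and -1.15. Without replicate 1 the SD of Abcg4 was 0.22, and with normexp background correction it was 0.14.

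**Figure D2:**
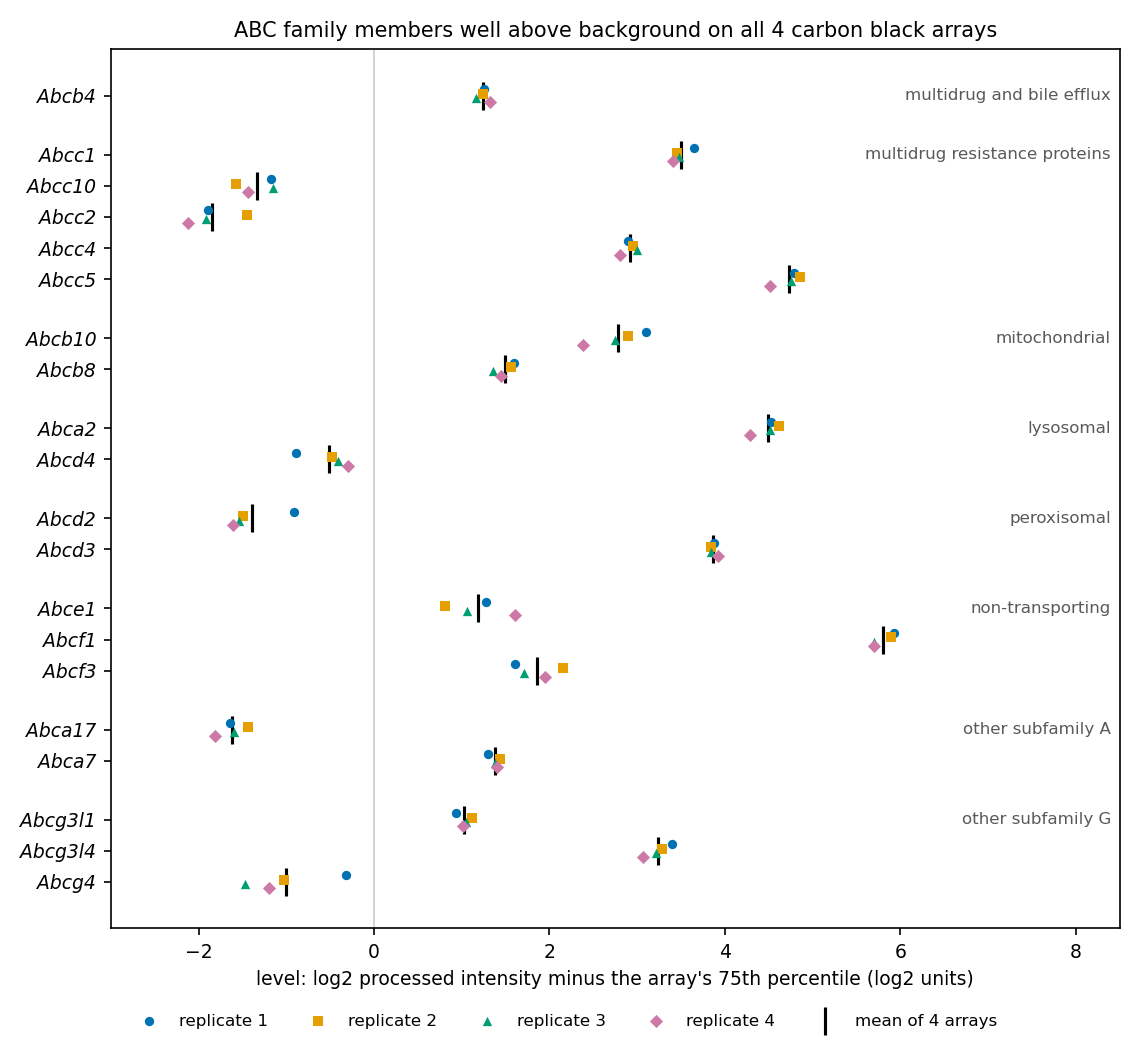
Level of 20 ABC family members well above background on all 4 arrays (horizontal axis, log2 units relative to the array's 75th percentile), with 1 symbol for each carbon black replicate and a bar at the mean, grouped by role. Replicate 1 stands apart for Abcd2, while the 4 symbols of Abcd3 overlap within 0.082 log2 units.

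Whether any member varied more between replicates than genes of like brightness was tested across all 14925 genes and unnamed transcripts well above background on at least 2 arrays. The 22 detected members were the only ones that entered, and the other 19 were not tested. None of the 22 passed (adjusted p from 0.961 to 0.994, one-sided F test against limma's fitted prior with Benjamini-Hochberg adjustment), beside 69 of all tested genes, or 0.462%. At an unadjusted p under 0.05, 1 of 22 passed (4.55%), which was Abcb10, beside 5.07% of all tested genes. With only 4 arrays, these p-values do not show that the members were constant. The median SD was 0.141 over the 22 members, against 0.161 over all tested genes and 0.141 over named genes with signal on every array, and 8 of the 22 lay above 0.161.

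**Figure D3:**
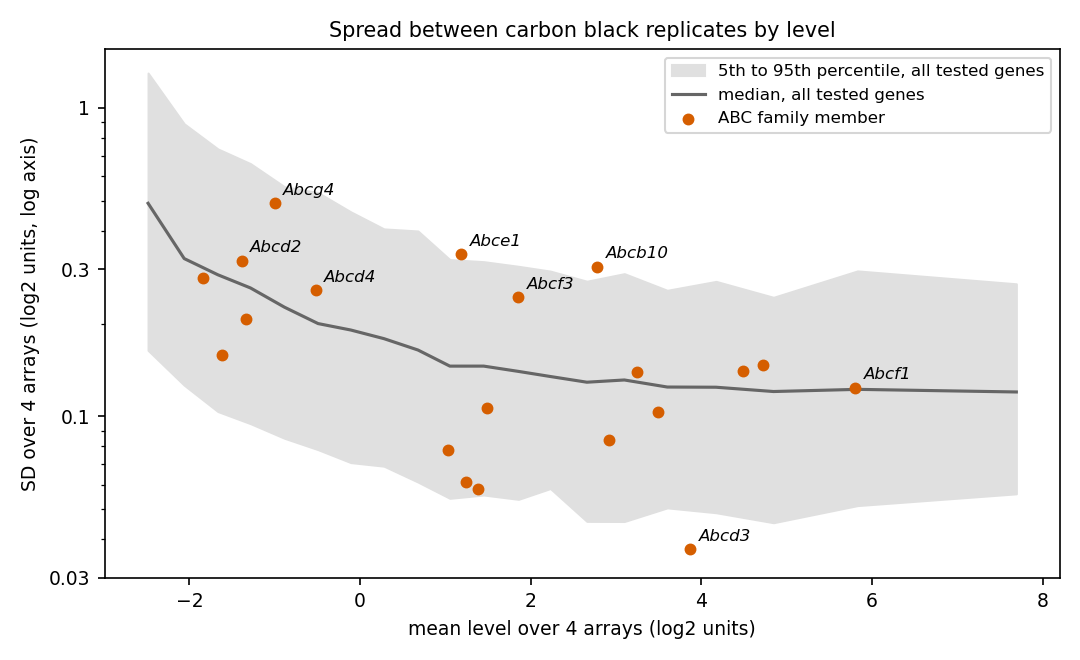
SD over the 4 carbon black arrays (vertical log axis) against mean level (horizontal axis) for 20 detected ABC family members (points), over the median and the 5th to 95th percentile of all 14925 tested genes in 20 bins of level. Abcb10 and Abce1 lie just above the band for their level, and Abcd3, with an SD of 0.037, below it.

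Across the 22 detected members the median deviation from a member's own mean was 0.023, 0.051, -0.024 and -0.11 on replicates 1 to 4. Over all tested genes it was -0.045, 0.069, 0.015 and -0.024. Of the 22, 10 (45.5%) had their lowest level on replicate 4, among them Abcb10, Abcc5 and Abca2, beside 32.5% of all tested genes, and 8 (36.4%) had their highest on replicate 2, beside 38.6%. Neither share was tested. Both depend on the 75th percentile subtracted from each array. This percentile was an intensity of 109, 93.7, 63.7 and 63.8 on replicates 1 to 4.

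Genes with several probes allowed a check within the same arrays. Of the 41 members, 13 had 2 probes and 1 had 3. The pairs of Abcb10, Abcb4 and Abcc4 and the 3 probes of Abcg3l4 had the mark on every array. The 2 probes of Abcb10 ranged over 0.72 and 0.64 log2 units and those of Abcc4 over 0.20 and 0.21. For Abcc1 the dimmer probe was marked on 3 arrays and stood at -2.40, -1.64, -1.31 and -2.05 on replicates 1 to 4. It was lowest on replicate 1, where the brighter probe was highest, and its value on that array is only a bound.

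**Figure D4:**
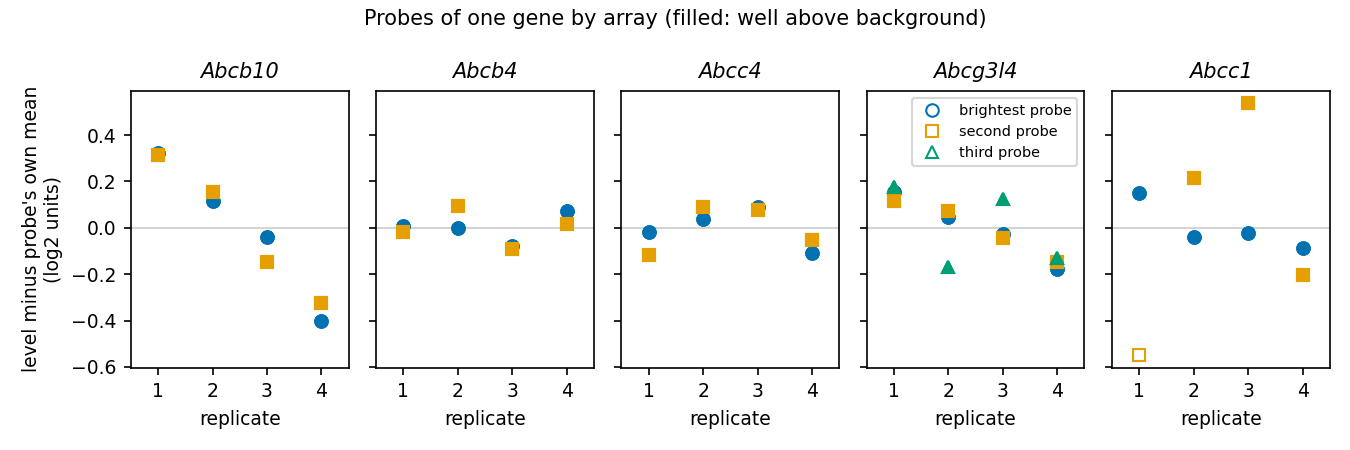
Level of each probe minus its own mean (vertical axis, log2 units) on the 4 carbon black arrays (horizontal axis) for the 5 ABC family genes with more than 1 detected probe, filled where the probe was well above background. Both Abcb10 probes are highest on replicate 1 and lowest on replicate 4, while the 2 Abcc1 probes disagree on replicate 1, where the dimmer one is not well above background.

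Start-site sequence was then set beside detection, which the choice of members had not used. RefSeq held a 300-base window for 32 of the 41 measured members. Observed over expected CpG had a median of 0.871 in the 17 members detected on all arrays that had a window, against 0.505 in the 12 detected on none. Over named genes the medians were 0.786 for those detected on all arrays and 0.337 for those on none, so the family showed the same order as genes at large. A ratio above 0.6 was found in 12 of the 17 (70.6%) and in 4 of the 12 (33.3%), beside 75.1% and 28.8% of named genes. The exceptions among the detected members were Abcc2 at 0.334, Abcg3l4 at 0.401, Abcg3l1 at 0.425, Abcd2 at 0.429 and Abcg4 at 0.572. Among those marked on no array they were Abca5 at 1.12, Abcg2 at 0.837, Abcb9 at 0.733 and Abcc9 at 0.623. Of the chromosome 14 copies, the detected Abcg3l4 and Abcg3l1 lay below the unmarked Abcb1a and Abcb1b, while the unmarked Abcg3 was at 0.195.

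**Figure D5:**
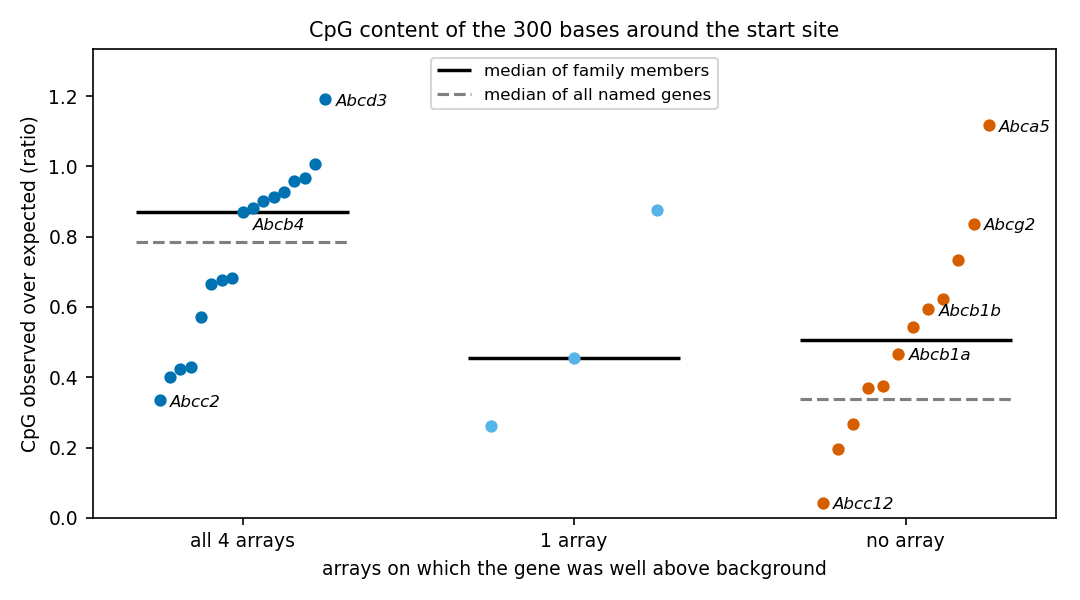
Observed over expected CpG in the 300 bases around the start site (vertical axis) for the 32 ABC family members with a RefSeq window, by the arrays on which the gene was well above background, with the family's median (solid) and that of all named genes (dashed, first and last class). Members detected on all 4 arrays have a median of 0.871 and those on none 0.505, and both classes hold members above and below 0.6.

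Both strands of these windows were searched for 5 sequences, each counted on its own. The GC box GGGCGG was found in 13 of the 17 members detected on all arrays (76.5%) and in 7 of the 12 on none (58.3%), beside 62.6% and 32.5% of named genes in the same classes and 34.9% of all promoters in the table. The TATA box TATAAA was found in 1 of the 17 and 2 of the 12. Its share was 6.95% and 18.2% in the same classes of named genes and 14.3% in all promoters. The CCAAT box CCAAT was found in 6 and 4, beside 39.4% and 36.6% of these named genes and 37.7% of all promoters. TGACNNNGC, the core of the antioxidant response element, was found in 2 of the 17, which were Abcc2 and Abcc10. It was also found in 2 of the 12, which were Abca5 and Abcg5. Named genes of these classes had it in 15.0% and 11.7%, and all promoters in 12.2%. The E box CACGTG was found in 0 of the 17 and 2 of the 12. Named genes had the opposite order, with 10.1% and 5.33%, beside 6.65% of all promoters. In the 3 windows printed above, a GC box began at position -209 from the start site in Abcb4, -124 in Abcb1a and -164 in Abcb1b. The Abcb1b window also held a CCAAT box at -203, another at -182 on the other strand, and an E box at 22. The Abcb4 and Abcb1a windows held neither of these motifs. A match describes these letters only, and nothing was measured about binding.

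Relatives under other symbols, and the excluded pair, were looked at with the same rules. The antigen peptide transporter genes Tap1 and Tap2, which belong to subfamily B, had levels of 1.53, 1.96, 1.78 and 2.01, and of 4.06, 4.39, 4.07 and 3.90, on replicates 1 to 4. Cftr, the chloride channel gene of subfamily C, was well above background on no array. Abcg1 had levels of 8.37, 8.45, 8.43 and 8.48, and Abca1 ranged from -0.17 on replicate 3 to 0.29 on replicate 1. The 8 lists of partner genes held 52 with a probe, of which 39 had signal on each array, 4 on some and 9 on none. Of all named genes, 48.0% had the mark on each array and 44.0% on none. The test of spread was passed by 0 of the 40 tested, beside 0.462% of all tested genes. At an unadjusted p under 0.05, 2 of the 40 passed, beside 5.07% of all tested genes. The 2 were the tapasin relative Tapbpl (adjusted p = 0.457, limma) and the disulfide isomerase gene Pdia3 (adjusted p = 0.961, limma). All 5 measured peptide loading genes were detected on all arrays, as were 8 of 9 receptors and factors that regulate ABC genes, among them Nr1h3 and Nfe2l2, with Nr1i3 on none. Of 9 genes of glutathione synthesis, conjugation and leukotriene C4 synthesis, Gclc, Gss, Gstp1 and Alox5 were detected on all arrays and Alox5ap on 1. Gclm, Gstm1, Ggt1 and the leukotriene C4 synthase gene Ltc4s were well above background on none.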

How the data were processed

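Cy3-labelled RNA of NR8383 cells (4 replicates, 1 exposed group, numbered by the labels) was hybridised to 1-colour arrays. Per the file headers, the deposited intensity was already corrected for background and for spatial trend on the array, with Agilent Feature Extraction 11.0.1.1, a version the submitters' processing notes give. No normalization between arrays is recorded there. Marks of the same software gave detection. Log2 intensity was averaged over a probe's spots without non-uniform ones, and the array's 75th percentile was subtracted. A probe counted as well above background when at least 50% of its spots were marked, and a gene when any of its probes was. Accessions without versions were matched to RefSeq symbols of GRCr8, which named 21109 of 45598 probes. The headers name another build, so coordinates are given for RefSeq windows only. Residual variance was tested with lmFit and squeezeVar of limma 3.58.1 in R 4.3.3, with a trend on level, a threshold of 0.05 and an adjustment over 14925 genes. The test was also run on simulated data in which only large spreads were planted. How many of these it recovered is not reported here, and its power for smaller ones is not known. The members, lists and tests were chosen with earlier results of these data known. Levels of 2 members are not reported here. Named were all other members and, of the other lists, those not detected on all arrays or with low p, and a few examples chosen after their values were seen, as were the 3 printed windows, the motifs and the CpG limit of 0.6. Deposited spot and background median intensity served an alternative background correction, which had been planned on spot means, a column not used here. The design text calls the replicates biological and says no more of their cultures, and p-values measure only the spread between them. With 4 arrays each SD is imprecise. Sequences come from RefSeq.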

Additional observations from a re-analysis of the deposited data

Results flagged for a closer look

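Of 22 detected members tested for a replicate far from the other 3, 1 was found (4.55%), beside about 1 in 20 that chance gives. This was Abcd2, with levels of -0.91 on replicate 1 and -1.50, -1.54 and -1.60 on the others, where the gap to the nearest replicate was 0.846 of the whole range. Its SD of 0.32 fell to 0.052 with normexp background correction, so the gap depends on how background is treated. The number of probes well above background had a gap of 0.845 of its range, with 18635 on replicate 2 against 17078, 17319 and 17079 on replicates 1, 3 and 4. Of the members marked on a single array, Abcb6 and Abcg3l3 were marked on replicate 2, Abcb11 on replicate 3 and Abcg8 on replicate 4, and the part of the higher probe count in the marks on replicate 2 was not tested.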

How the results depend on the processing

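The count of 22 members well above background on all 4 arrays was 22 with every spot of a probe marked. It was also 22 with the brightest probe only and, in an alternative chosen after seeing the data, with curated transcript accessions only. The count was 24 with the weaker mark of a positive and significant signal, which added Abcb1b and Abcg3l3. Of the relatives and partner genes, 43 had signal on every array, 47 under the weaker mark and 43 to 44 without single replicates. Without each replicate in turn the count of members was 22. Leaving out an array could not lower either count, so these values do not test its stability. None of the 22 members passed the test of spread (limma) in any of the 12 alternatives run, with adjusted p between 0.282 and 0.999. The count of all genes past that test, 69, was 0 with the 75th percentile over detected probes, 1 with quantile normalization, 237 after normexp background correction, 357 when dim probes were kept, 0 with a prior without trend, 0 with a robust prior and 70 with the mean of a gene's probes. With a robust prior the degrees of freedom were those limma gives each gene, and a version with 1 common number, tried after that count of 0 had been seen, gave 207. The count ranged from 27 to 162 without single replicates, with 89, 27, 162 and 43 without replicates 1, 2, 3 and 4, and the cause was not tested. The median SD of the 22 members lay between 0.117 and 0.172 over the alternatives run. Levels moved by a median of -3.52 with the percentile over detected probes and -0.42 with normexp. With the mean of a gene's detected probes 5 of the 22 levels moved by more than the SD between replicates, among them Abcc1 at 0.82, against 3.50 for its brightest probe, and Abcg3l4 at 1.56, against 3.24. These shifts are large, so a level has meaning only under its own scaling. Leaving out 1 replicate moved the SD by over 1.5 times for 15 of the 22 members. No paired analysis was possible because all samples form 1 group. Depth is not defined for arrays, and for the 19 members not marked on all arrays a change between replicates could not be measured against background.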
